A study of Mus musculus with 8 samples.

Results

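The cytochrome P450 genes of mouse skin were compared between 4 Adam10 knockout and 4 wild-type samples. Members were taken by name, as genes whose symbol is Cyp followed by a family number, a single subfamily letter and a gene number, from probe sets of the array that carry exactly 1 gene symbol. The rule found 81 genes among 19935 genes tested, each measured by 1 probe set. Cyp51 was left out by the rule, as were symbols of another form such as Cyp4a12a and Cyp4a12b. A further 7 probe sets that join several P450 symbols were not assigned to a gene, and 0 of them passed the test used below. RNA was measured on Affymetrix Mouse Gene 1.0 arrays, with 1 array per sample. The first group is labelled Adam10 knockout (cKO in the titles, which often stands for a conditional deletion) and the second Adam10 wildtype. Adam10 is a membrane protease that releases the outer part of Notch receptors and other surface proteins. The sources used here name no Cre driver, deleted exons, strain, age or sex, the titles carry a P and a number of unstated meaning, and the samples are labelled both as skin and as primary skin cells. The labels do not say that each sample is a separate animal, so p-values measure the spread between these samples.

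Cytochrome P450 enzymes are heme proteins that insert an oxygen atom into fatty acids, sterols, steroids, retinoids and foreign chemicals. Those of the endoplasmic reticulum take electrons from P450 reductase or cytochrome b5, and those of mitochondria take them from ferredoxin. In the epidermis such enzymes make barrier lipids and eicosanoids, clear retinoic acid, activate vitamin D and oxidise chemicals that reach the skin, and several are switched on by the aryl hydrocarbon receptor.

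Values are given as log2 intensity, and differences are log2 values, knockout minus wild type. A gene is said to have risen, fallen or passed where its adjusted p in limma was under 0.05, adjusted over all 19935 genes. Adam10 itself was at 6.85, 7.00, 7.04 and 6.79 in the knockouts, against 7.39, 7.33, 7.06 and 7.34 in wild type. The groups did not overlap (exact two-sided permutation p = 0.0286, the smallest that 70 assignments allow), but the adjusted p of 0.064 missed the threshold (difference -0.36, SE 0.11), and whether the probes cover the deleted exons is not known. Wild-type array 4 stood apart from the other arrays, and wild-type arrays 3 and 4 carried more muscle RNA. The mean of 11 skeletal muscle markers was 3.95 to 4.19 in the knockouts, against 4.09, 4.30, 5.47 and 7.63 on wild-type arrays 1 to 4. Calls of P450, partner and regulator genes that change without these 2 arrays are given both ways. Calls of cell type markers are given with all arrays only.

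Of the 81 P450 genes 3 rose and 4 fell in the knockout skin. Cyp4b1, Cyp2j9 and Cyp3a13 rose by 1.61-fold, 1.87-fold and 2.02-fold. Cyp2f2, Cyp2g1, Cyp2s1 and Cyp17a1 were 3.03-fold, 1.89-fold, 1.85-fold and 1.86-fold lower in the knockouts. The share of members that passed, 8.64%, was close to the 8.75% of all genes. Members that rose made up 3.70% against 6.41% of all genes, and members that fell 4.94% against 2.34%. The groups did not overlap for 8 members (9.88%), against 18.1% of all genes. These shares cover dim genes too, which were more frequent among the members. Among the 15 members with a mean above the median of all genes 3 passed (20.0%), against 15.2% of all genes above it. Groups did not overlap for 33.3% of these 15 members, against 28.5% of all genes above that median. The median difference was -0.05 over the members and 0.0027 over all genes, and 64.2% of members and 49.6% of all genes lay below 0. After median centring of the arrays the medians were 0.06 over the members and 0.10 over all genes.

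**Figure D1:**
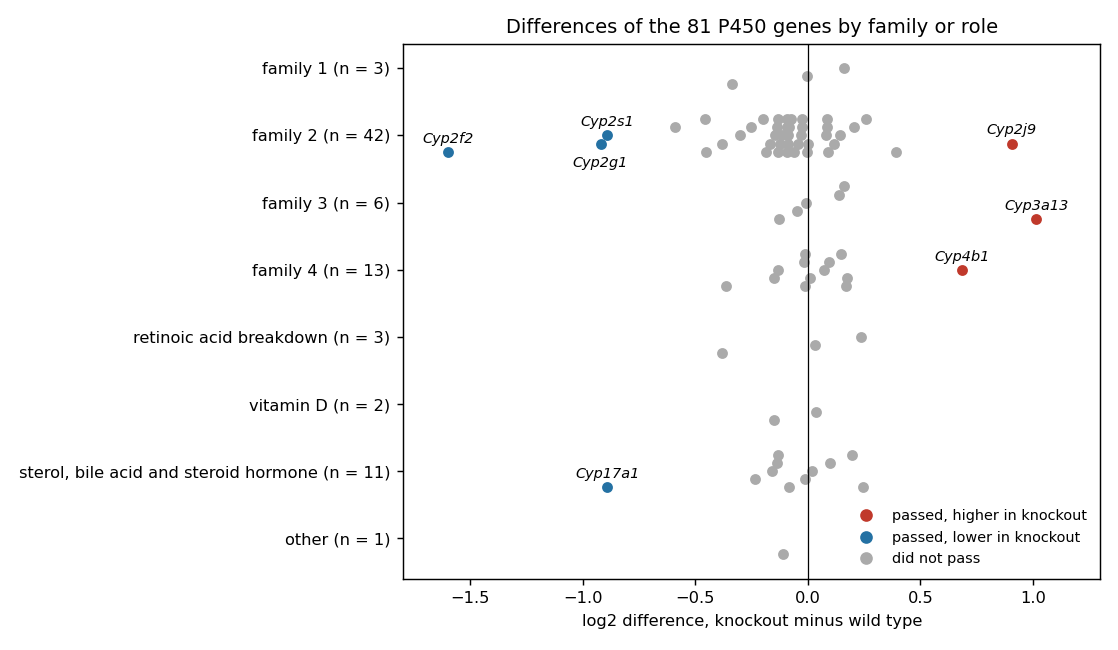
Log2 difference, knockout minus wild type, of each of the 81 P450 genes, 1 point per gene, in rows by family or role (vertical offsets within a row only separate points). The 3 genes that rose and the 4 that fell are named, and the remaining 74 lie between -0.59 and 0.39.

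Many members were dim. The probe sets of 43 of the 81 (53.1%) lay under the 25th percentile of all genes on each of the 8 arrays, against 20.1% of all genes. They included 11 of 13 Cyp2c genes, 5 of 6 Cyp3a genes, and Cyp7a1, the rate-limiting enzyme of bile acid synthesis in liver. Of the members 15 had a mean above the median of all genes, among them Cyp2s1, Cyp4b1, Cyp17a1, Cyp2b19 and Cyp4f39. The arrays come without detection calls, so a dim value is not shown to be a transcript. The liver secretes albumin, and Alb was at 2.26 to 2.63 in the knockouts and 2.34, 7.42, 2.73 and 3.09 on wild-type arrays 1 to 4. Cyp2e1, an ethanol-oxidising enzyme abundant in liver, was at 1.65 to 1.90 in the knockouts and 1.88 to 2.67 in wild type, with 2.12 on wild-type array 2. It did not pass (difference -0.45, adjusted p = 0.10), and without wild-type arrays 3 and 4 the difference was -0.26.

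Family 2, the largest in mice, oxidises drugs, toxicants and arachidonic acid. Of its 42 measured genes (Cyp2r1 is counted with vitamin D) Cyp2j9 rose and Cyp2f2, Cyp2g1 and Cyp2s1 fell. Cyp2f2 is the enzyme of mouse lung club cells that activates naphthalene. It was at 3.29, 3.41, 3.56 and 4.04 in the knockouts, against 4.47, 5.47, 6.08 and 4.68 in wild type. The highest knockout value lay under the lowest wild-type value, and the wild-type arrays were more spread (SD 0.74) than the knockouts (SD 0.33). The difference was -1.60 (SE 0.32, adjusted p = 0.015), the largest in size of the 81, and leaving out knockout array 2 moved the adjusted p to 0.059.

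Cyp2g1 is an enzyme best known from the olfactory mucosa. Its values were 3.44, 3.99, 3.60 and 3.52 in the knockouts, against 4.51, 4.80, 4.27 and 4.66 in wild type. All knockouts lay below all wild types, with a difference of -0.92 (SE 0.15, adjusted p = 0.0064) that passed with any 1 array left out. Cyp2s1 is an epithelial enzyme that dioxin induces through the aryl hydrocarbon receptor and that can oxidise retinoic acid. It stood at 6.15, 6.34, 5.97 and 6.55 in the knockouts, against 7.07, 7.41, 7.39 and 6.71 in wild type. The groups again did not overlap, the nearest pair being knockout array 4 and wild-type array 4. The difference was -0.89 (SE 0.18, adjusted p = 0.015), and without wild-type array 3 the adjusted p was 0.051.

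Cyp2j9 belongs to the Cyp2j arachidonic acid epoxygenases and hydroxylases and is known mainly from mouse brain. It was at 4.64, 4.65, 4.82 and 4.54 in the knockouts, against 3.96, 3.70, 4.17 and 3.21 in wild type. The 4 knockouts were close together (SD 0.12) and above every wild type, with a difference of 0.90 (SE 0.18, adjusted p = 0.015). It missed the threshold when knockout array 2 (adjusted p = 0.055) or array 3 (adjusted p = 0.052) was left out. Its neighbour Cyp2j6, named here after its values were seen, also had groups that did not overlap, at 5.20 to 5.47 in the knockouts and 4.65 to 5.10 in wild type. Cyp2j6 did not pass (difference 0.39, adjusted p = 0.078), but it did after median centring (0.49, adjusted p = 0.034) and with a filter on dim genes (adjusted p = 0.040). The other 4 Cyp2j genes measured, Cyp2j5, Cyp2j11, Cyp2j12 and Cyp2j13, had differences of -0.15 to -0.0049.

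The rest of family 2 did not pass. Cyp2w1, an enzyme known from fetal gut and colon tumours, was at 5.66, 6.01, 5.41 and 5.69 in the knockouts, against 5.98, 6.36, 6.37 and 5.88 in wild type. Knockout array 2 lay above the lowest wild types, and the difference was -0.46 (adjusted p = 0.10). Without wild-type array 4 it was -0.55 (adjusted p = 0.048). The 13 Cyp2c genes, whose proteins oxidise drugs and arachidonic acid in liver, had differences of -0.20 to 0.26. The 9 Cyp2d genes had differences of -0.30 for Cyp2d11 to 0.20 for Cyp2d40, and the brightest of them, Cyp2d22, was at 4.25 to 4.69 in the knockouts and 4.44 to 4.62 in wild type. Across family 2 the median difference was -0.09, and 31 of 42 genes (73.8%) lay below 0, against 49.6% of all genes. Of these 42 genes 25 were under the 25th percentile on all arrays.

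Cyp3a13 belongs to a subfamily that oxidises drugs and steroids in liver and intestine. Its values were 4.65, 4.47, 3.93 and 4.17 in the knockouts, against 3.93, 3.10, 3.38 and 2.76 in wild type. Knockout array 3 and wild-type array 1 met, so the groups touched. The difference was 1.01 (SE 0.24, adjusted p = 0.028). It passed in 3 of the 8 fits with 1 array left out, and without wild-type arrays 3 and 4 it was 0.79 (adjusted p = 0.11). The other 5 Cyp3a genes were under the 25th percentile on all arrays, with differences between -0.13 and 0.16.

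Family 4 hydroxylates fatty acids at their far end. Of its 13 measured genes Cyp4b1 rose and 0 fell. Cyp4b1 oxidises short and medium chain fatty acids and activates lung toxicants such as ipomeanol. It was at 6.40, 6.64, 6.25 and 6.61 in the knockouts, against 5.87, 5.71, 5.89 and 5.69 in wild type. The spread within each group was small and the groups were well apart, with a difference of 0.69 (SE 0.11, adjusted p = 0.0068) that passed in all 8 fits with 1 array left out. Cyp4f39 is the mouse counterpart of the human enzyme that makes the omega-hydroxylated fatty acids of barrier ceramides. Its values were 7.55, 7.44, 7.57 and 7.66 in the knockouts, against 8.23, 7.94, 8.11 and 7.40 in wild type. Wild-type arrays 1 to 3 lay above every knockout and wild-type array 4 below them all. With all arrays the difference of Cyp4f39 was -0.37 (adjusted p = 0.20). Without wild-type array 4 it was -0.54 (adjusted p = 0.011), and without wild-type arrays 3 and 4 -0.53 (adjusted p = 0.048). The other 7 Cyp4f genes differed by -0.15 to 0.10 and the 3 Cyp4a genes, fatty acid hydroxylases that peroxisome proliferators induce in liver, by -0.13 to 0.17.

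Cyp17a1 makes the precursors of sex steroids by its hydroxylase and lyase activities and is known best from gonads and adrenal. It was at 5.34, 5.49, 5.29 and 5.72 in the knockouts, against 6.63, 6.18, 6.59 and 5.998 in wild type. The groups did not overlap, and the difference of -0.89 (SE 0.16, adjusted p = 0.0093) passed with any 1 array left out. It was the 1 gene that passed among 11 measured genes of sterol, bile acid and steroid hormone synthesis. Cyp11a1, which starts steroid synthesis by cutting the side chain of cholesterol, differed by -0.01 (95% interval -0.44 to 0.42), and by 0.20 without wild-type arrays 3 and 4 (adjusted p = 0.56). Cyp21a1 and Cyp11b1, later enzymes of adrenal steroid synthesis, differed by -0.14 (adjusted p = 0.47) and 0.25 (adjusted p = 0.23). Cyp27a1, a mitochondrial sterol hydroxylase, differed by -0.08 (95% interval -0.30 to 0.13). Cyp39a1, another sterol hydroxylase, was at 5.55 to 5.86 in the knockouts and 5.49 to 5.62 in wild type, with a difference of 0.20 (adjusted p = 0.24). Cyp7b1, an oxysterol hydroxylase, differed by 0.10 at a level under the 25th percentile of each array.

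**Figure D2:**
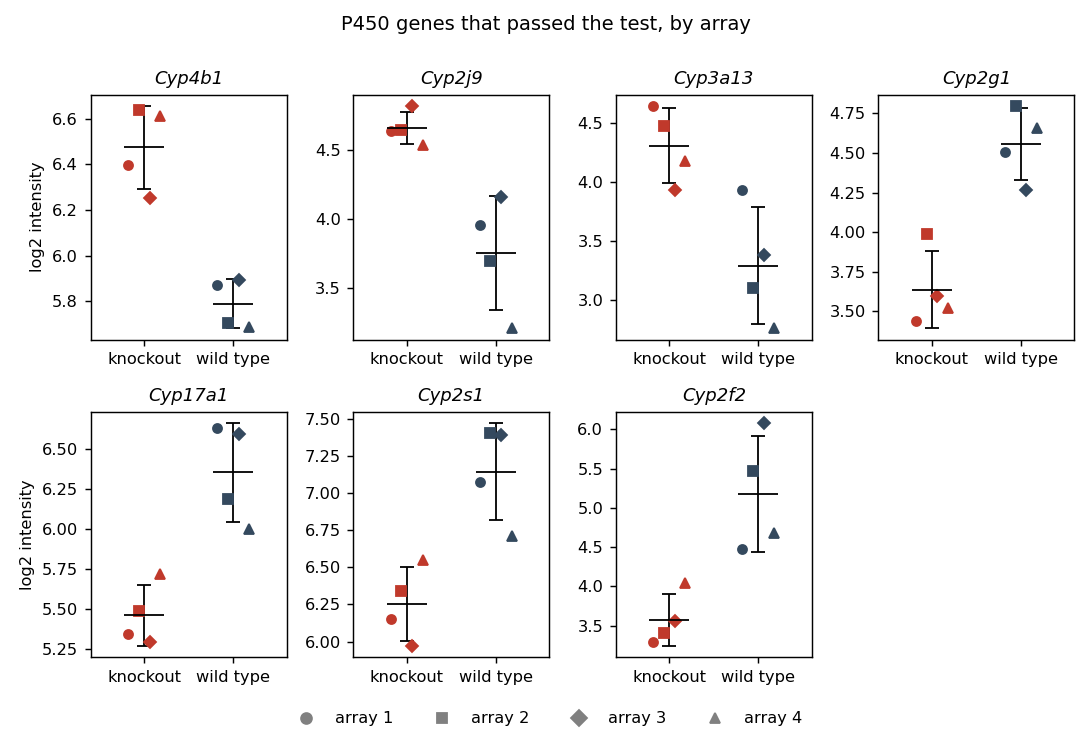
Log2 intensity of the 7 P450 genes that passed, in panels of 4 knockout and 4 wild-type arrays (points, 1 marker shape per array number), with the mean and SD as black bars. The groups do not overlap in 6 panels and touch in that of Cyp3a13, where knockout array 3 and wild-type array 1 are both at 3.93.

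Without wild-type array 4, 3 members rose (6.77% of all genes did) and 7 fell (3.25% of all genes). The 3 that fell in addition were Cyp4f39, Cyp2b19 and Cyp2w1. Without wild-type arrays 3 and 4, 2 members rose (2.96% of all genes) and 5 fell (1.68% of all genes), with Cyp4f39 gained and Cyp3a13 lost. The Y chromosome genes Kdm5d, Uty and Eif2s3y had a mean level of 2.25, 5.59, 5.64 and 2.08 on knockout arrays 1 to 4, against 2.40, 5.27, 5.46 and 5.34 on wild-type arrays 1 to 4. With that mean as a covariate the same 7 members passed.

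Promoters of the members that passed, from 250 bases before to 50 after the gene's start, were read in RefSeq sequence of GRCm38.p6, where 5 of the 7 were found. They are shown because Cyp4b1, Cyp2j9 and Cyp3a13 rose and Cyp2f2 and Cyp2s1 fell, a grouping by direction only. Cyp1a1 is added as the best known target of the aryl hydrocarbon receptor. Both strands were searched for GCGTG, the core bound by that receptor, and for TGGGAA, bound by the Notch effector RBPJ. They were also searched for TGANTCA, a loose form of the AP-1 site TGACTCA or TGAGTCA that allows any base at its centre. Matches are in capitals.
Cyp4b1, chr4:115647672-115647971, minus strand: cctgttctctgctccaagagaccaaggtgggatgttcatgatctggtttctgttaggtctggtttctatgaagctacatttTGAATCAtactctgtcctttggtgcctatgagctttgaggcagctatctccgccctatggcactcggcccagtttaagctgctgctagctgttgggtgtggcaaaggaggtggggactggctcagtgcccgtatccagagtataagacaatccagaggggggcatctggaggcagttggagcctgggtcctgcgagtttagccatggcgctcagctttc
Cyp2j9, chr4:96591436-96591735, minus strand: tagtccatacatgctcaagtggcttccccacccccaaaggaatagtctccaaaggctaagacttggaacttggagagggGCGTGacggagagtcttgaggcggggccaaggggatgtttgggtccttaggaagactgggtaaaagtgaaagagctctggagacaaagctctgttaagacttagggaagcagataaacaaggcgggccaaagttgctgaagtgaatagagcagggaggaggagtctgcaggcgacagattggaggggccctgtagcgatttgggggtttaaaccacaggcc
Cyp3a13, chr5:137921570-137921869, minus strand: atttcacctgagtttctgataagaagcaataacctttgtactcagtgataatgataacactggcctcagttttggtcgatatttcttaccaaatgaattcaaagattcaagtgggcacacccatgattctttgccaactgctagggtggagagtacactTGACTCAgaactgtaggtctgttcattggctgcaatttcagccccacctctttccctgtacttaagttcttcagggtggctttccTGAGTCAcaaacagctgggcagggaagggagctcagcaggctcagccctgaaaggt
Cyp2f2, chr7:27119705-27120004, plus strand: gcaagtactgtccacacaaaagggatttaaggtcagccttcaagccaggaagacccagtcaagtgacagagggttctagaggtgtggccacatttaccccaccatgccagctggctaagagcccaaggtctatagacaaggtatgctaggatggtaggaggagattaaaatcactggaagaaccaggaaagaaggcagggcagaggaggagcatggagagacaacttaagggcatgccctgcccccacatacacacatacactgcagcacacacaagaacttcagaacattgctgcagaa
Cyp2s1, chr7:25816476-25816775, minus strand: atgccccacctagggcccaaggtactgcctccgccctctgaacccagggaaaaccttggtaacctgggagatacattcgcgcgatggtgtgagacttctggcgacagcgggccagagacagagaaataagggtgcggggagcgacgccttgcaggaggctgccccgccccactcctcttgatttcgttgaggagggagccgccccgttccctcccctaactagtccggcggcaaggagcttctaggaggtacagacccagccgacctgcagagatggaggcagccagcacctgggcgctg
Cyp1a1, chr9:57697363-57697662, plus strand: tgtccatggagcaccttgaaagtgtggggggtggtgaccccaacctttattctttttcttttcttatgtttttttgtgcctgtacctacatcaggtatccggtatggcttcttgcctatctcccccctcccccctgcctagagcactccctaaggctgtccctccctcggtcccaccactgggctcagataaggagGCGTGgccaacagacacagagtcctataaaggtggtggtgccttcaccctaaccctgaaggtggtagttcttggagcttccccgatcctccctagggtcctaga

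Cyp3a13 holds the AP-1 letters TGACTCA at 91 and TGAGTCA at 6 bases before its start. Cyp4b1 holds only the looser TGAATCA, with A at its centre, at 169 bases before its start. Cyp2j9 holds the receptor core at 171 and Cyp1a1 at 54 bases before the start. Neither Cyp2f2 nor Cyp2s1 holds any of the 3 motifs in this window, and none of the 5 promoters of members that passed holds TGGGAA. Among 32851 mouse promoters 7.81% hold TGANTCA, 32.4% GCGTG and 25.6% TGGGAA. Among 70 promoters of 62 members the shares are 7.14%, 21.4% and 38.6%. A match is a string of letters and not a shown binding site, and sequence outside this window was not searched.

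Cyp2f2, Cyp2g1 and Cyp2s1 lie in 1 neighbourhood of mouse chromosome 7, which holds 11 of the measured members in a row from Cyp2s1 to Cyp2t4. This grouping was noticed after the values were seen and is given with no test. All 11 differences were below 0, from -1.60 for Cyp2f2 to -0.03 for Cyp2b9 and Cyp2t4, with a median of -0.26. The 3 named genes passed, and Cyp2b10 (-0.38, adjusted p = 0.22) and Cyp2b19 (-0.59, adjusted p = 0.30) were the next in size. Of the 11, 4 were under the 25th percentile on every array. The count below 0 was 10 after quantile normalization or cyclic loess and 8 after median centring. The 4 measured genes of other families in the same stretch, Nlrp9c, Nlrp4a, Nlrp9a and Vmn1r185, had differences of -0.16 to 0.33 and did not pass, and all 4 were under the 25th percentile on every array. In the Cyp2c neighbourhood 7 of 12 members were below 0, in the Cyp2d neighbourhood 5 of 9 and in the Cyp4f neighbourhood 4 of 7, and 0 members passed in these 3. In the Cyp2j neighbourhood 4 of 6 were below 0 and Cyp2j9 rose, and in the stretch from Cyp4x1 to Cyp4b1 1 of 5 was below 0 and Cyp4b1 rose. Of 5 neighbouring Cyp3a genes 3 were below 0, as were 2 of the 3 from Cyp1a2 to Cyp11a1, and 0 passed in either. Sequence similarity between the members of a neighbourhood was not measured, and the array's probes may not tell all of them apart.

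**Figure D3:**
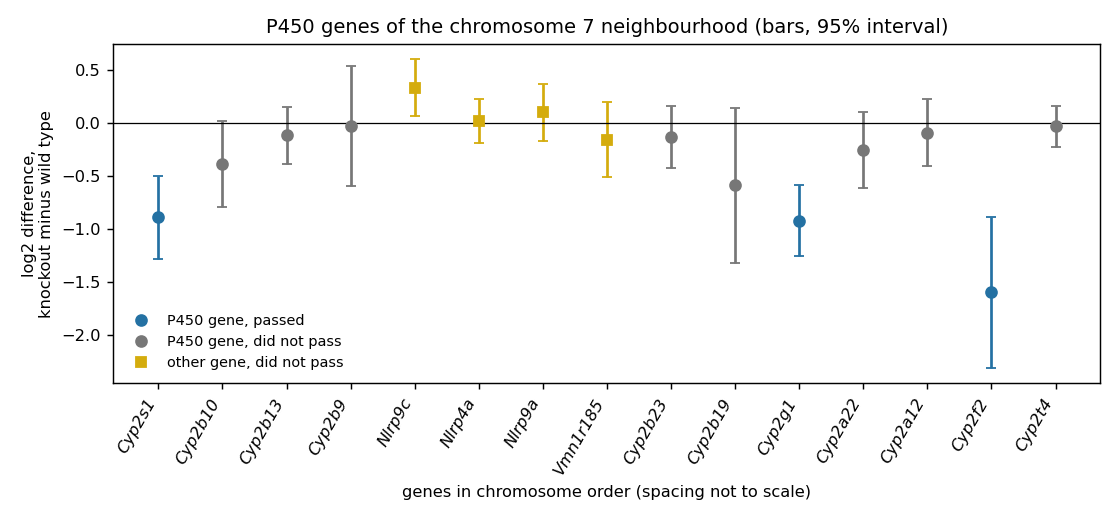
Log2 difference, knockout minus wild type, with its 95% interval, for the 15 measured genes of the chromosome 7 neighbourhood in chromosome order. The 11 P450 genes (circles) all lie below 0 and the 4 other genes (squares), all dim on every array, between -0.16 and 0.33.

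Cyp2b19 is a keratinocyte epoxygenase of arachidonic acid in mice. It was at 7.05, 7.11, 6.45 and 7.31 in the knockouts, against 8.48, 7.58, 7.56 and 6.65 in wild type. As with Cyp4f39, wild-type arrays 1 to 3 lay above every knockout, and wild-type array 4 was low. The difference was -0.59 (SE 0.33) with all arrays and -0.90 without wild-type array 4 (adjusted p = 0.045). Without wild-type array 1, the highest, it was -0.28 (adjusted p = 0.52), and without wild-type arrays 3 and 4 it was -1.05 (adjusted p = 0.059). Of 6 measured suprabasal keratinocyte markers 1 rose and 1 fell. They were low on the same array, with a summed level of 13.94 on wild-type array 4 against 14.18 to 14.28 on the other wild types and 14.04 to 14.17 in the knockouts. Their part in the values of Cyp2b19 and Cyp4f39 was not tested.

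The hydroxylases that break down retinoic acid, Cyp26a1, Cyp26b1 and Cyp26c1, were measured and 0 passed. Cyp26c1 was at 4.52, 4.55, 4.43 and 3.99 in the knockouts, against 4.60, 4.72, 4.80 and 4.91 in wild type. Its groups did not overlap, but the difference of -0.38 missed the threshold (adjusted p = 0.11). Cyp26b1, the form known to act in developing skin, differed by 0.24 (95% interval -0.015 to 0.49, adjusted p = 0.22). Cyp26a1 differed by 0.03 (95% interval -0.31 to 0.37). Of the vitamin D enzymes Cyp27b1, the hydroxylase that makes the active hormone and is present in keratinocytes, was at 2.72, 3.23, 3.52 and 2.98 in the knockouts, against 3.09, 3.15, 3.18 and 2.87 in wild type. Its groups overlapped fully (difference 0.04, 95% interval -0.32 to 0.40). Cyp2r1, the enzyme of the first activation step in liver, was under the 25th percentile on all arrays and differed by -0.15 (adjusted p = 0.73). The intervals are those of single genes and are not adjusted for the number of genes.

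Family 1 holds the standard targets of the aryl hydrocarbon receptor. Cyp1a1 was at 2.23, 2.14, 2.73 and 2.37 in the knockouts, against 2.17, 2.73, 2.09 and 2.50 in wild type. These values were under the 25th percentile of all genes on all 8 arrays, and the difference was -0.0044 (95% interval -0.38 to 0.37). Cyp1b1, the form usual in extrahepatic tissue and in dermal fibroblasts, was at 3.17, 2.98, 3.08 and 2.57 in the knockouts, against 3.04, 3.16, 3.19 and 3.76 in wild type. Its highest value was on wild-type array 4, and it did not pass (difference -0.34, adjusted p = 0.27). The difference was -0.18 without that array, -0.15 without wild-type arrays 3 and 4 and -0.08 with muscle markers as a covariate. Fibroblast markers were also highest on that array, with a summed level of 12.89 against 10.08 to 11.19 on the other wild types and 10.32 to 10.48 in the knockouts, and their part in Cyp1b1 was not tested. Cyp1a2 differed by 0.16 (adjusted p = 0.46). Cyp20a1, a P450 of unassigned function, differed by -0.11 (adjusted p = 0.80), and by 0.15 without wild-type array 4.

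**Figure D4:**
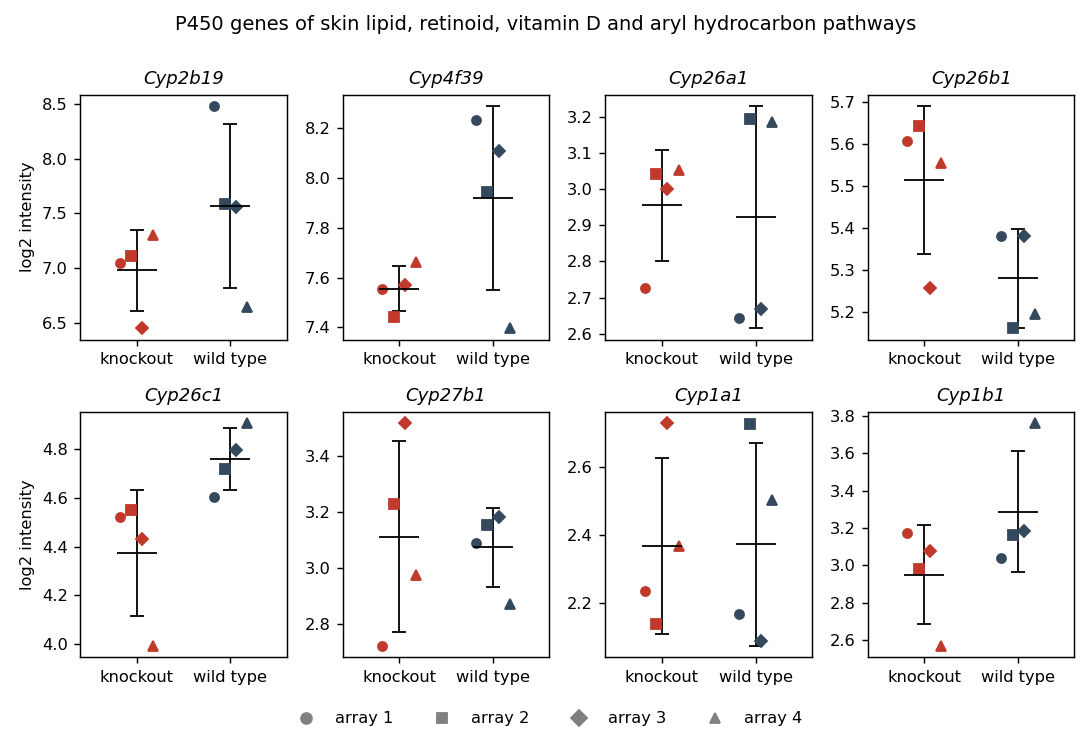
Log2 intensity of 8 P450 genes of skin pathways that did not pass, in panels of 4 knockout and 4 wild-type arrays (points, 1 marker shape per array number), with the mean and SD as black bars. In Cyp4f39 wild-type array 4 (triangle) lies apart from the other wild types, and in Cyp26c1 the groups do not overlap. In Cyp2b19 wild-type array 1 (circle) is the highest and wild-type array 4 the lowest of the wild types.

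Genes that serve or control the P450 enzymes were read from 4 lists. Of 38 measured genes 3 rose and 0 fell, or 7.89% against 8.75% of all genes. Most were bright, with 23 of the 38 above the median of all genes on every array. Of all genes with a mean above the median 15.2% passed. Ahr, the aryl hydrocarbon receptor, was at 7.52, 7.51, 7.49 and 7.82 in the knockouts, against 7.34, 6.96, 7.13 and 6.99 in wild type. All knockouts lay above all wild types (difference 0.48, SE 0.12, adjusted p = 0.035). Tiparp, a target of the receptor that modifies and limits it, was at 6.61, 6.23, 6.28 and 6.20 in the knockouts, against 6.03, 5.40, 5.56 and 5.86 in wild type. Its groups did not overlap either (difference 0.61, SE 0.15, adjusted p = 0.034). The other targets listed, Nqo1, Aldh3a1 and Ahrr, differed by -0.01, 0.03 and -0.03.

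Rara, a retinoic acid receptor, was at 6.46, 6.50, 6.36 and 6.31 in the knockouts, against 5.82, 6.06, 6.09 and 5.75 in wild type. It rose by 0.48 (SE 0.11, adjusted p = 0.024). Ahr, Tiparp and Rara all missed the threshold without wild-type arrays 3 and 4 (adjusted p = 0.14, 0.098 and 0.069), after quantile normalization and after cyclic loess. With 1 array left out they passed in 1, 3 and 5 of 8 fits. After quantile normalization and after cyclic loess 3 partner or regulator genes did pass, but these were other genes, not named here. Rarg, the main retinoic acid receptor of epidermis, differed by 0.52 (adjusted p = 0.051) and Vdr, the vitamin D receptor, by 0.78 (adjusted p = 0.11). With all arrays and the values as deposited, none of 7 measured electron donors and heme-binding partners passed. Neither did any of 7 enzymes of heme synthesis. Cyb5a, cytochrome b5, differed by 0.07 (95% interval -0.13 to 0.27). Alad, the second enzyme of heme synthesis, had the lowest p of its list at a difference of -0.60 (adjusted p = 0.054). Por, which encodes P450 reductase, had no match among the genes tested.

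**Figure D5:**
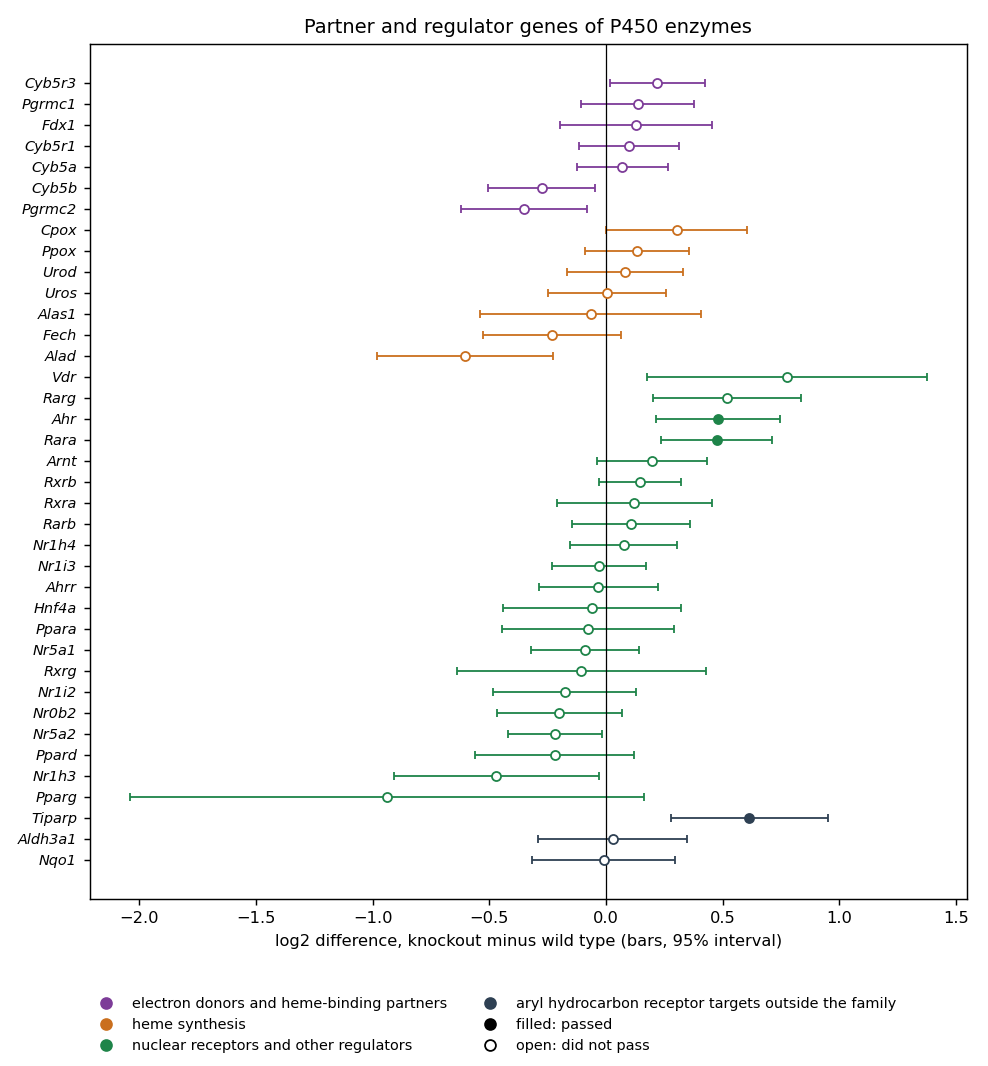
Log2 difference, knockout minus wild type, with its 95% interval, of 38 partner and regulator genes of P450 enzymes, coloured by list. Filled points mark Ahr, Rara and Tiparp, which passed, and open points the 35 genes that did not.

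Marker RNA of several cell types also differed between the groups. In bulk RNA fewer cells of a type and less RNA per cell cannot be told apart. Basal keratinocyte markers were higher in the knockouts, where 8 of 9 passed and the summed level was 13.69 to 13.87, against 12.92 to 13.36 in wild type. Sebocyte markers were lower, with 3 of 9 passed and a summed level of 7.06 to 7.15 in the knockouts against 7.61 to 8.69 in wild type. All 9 were below 0, and Elovl3, Far2 and Mgst1 passed. Awat1, Awat2, Mc5r and Plin5 differed by -0.30 to -0.10, Scd3 by -0.54 and Pparg by -0.94, and these did not pass. Macrophage markers were lower too, with 5 of 9 passed and 7.53 to 7.99 in the knockouts against 8.54 to 9.36 in wild type. Melanocyte markers were higher, with 3 of 6 passed and 9.07 to 9.74 in the knockouts against 8.44 to 9.03 in wild type. Fibroblast, adipocyte, endothelial and skeletal muscle markers had 0 passed, each with its highest level on wild-type array 4. Of 10 hair follicle markers 8 were below 0 and 2 passed, both lower in the knockouts. Hepatocyte markers had 0 of 6 passed, but all 6 were highest on wild-type array 2. Their summed level was 8.02 on that array, against 5.73 to 5.89 on the other wild types and 5.59 to 5.89 in the knockouts. Of 7 mast cell markers Kit, which melanocytes also express, rose by 1.09, and the other 6 had differences of -2.69 to -0.15 and did not pass. The part of these cell types in the 7 P450 changes was not tested.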

How the data were processed

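RNA of 4 knockout and 4 wild-type samples was measured, 1 array each. The authors deposited 1 intensity per probe set and array, produced by RMA, a robust average over the probes of a set, per the submitters' processing notes. No version, setting or build of RMA is given in the sources used here. Values ran from 0.817 to 11173 and were read as linear, and log2 was taken with no pseudocount. The probe annotation gives exactly 1 symbol to 21780 of 35519 probe sets, and of several per gene the one with the highest mean was kept, which left 19935 genes.

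Genotype was tested with limma 3.58.1 in R 4.3.3 (lmFit, eBayes, two-sided), and p-values were adjusted over the whole table by Benjamini-Hochberg. The fit was checked on simulated data with independent noise of equal spread in both groups. That check does not cover unequal spread or an array that stands apart, as in these data. Genes named are the members that passed, the member with the smallest p of each role without one, a list of 15 skin genes (of which Cyp24a1 had no match), Adam10, and partner genes that passed. Other genes were named after their values were seen. Members and lists were chosen with earlier results of these data known. Alternatives were 3 normalizations, a filter on and a floor for dim values, a pseudocount of 16, the mean of all probe sets, another prior, array weights, 2 covariates and leaving out arrays. Arrays give no depth, and their number limits the precision. Scan dates, batches and probe-level values were not used here. Gene order came from RefSeq genes of GRCm38.p6, where all 81 members matched.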

Additional observations from a re-analysis of the deposited data

Results flagged for a closer look

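Among 25 reported genes in the 2 groups of 4 arrays, 4 groups held 1 array far from the other 3, by Dixon's critical value for 4 samples. Chance gives this in about 1 of 20 groups, and 50 groups were looked at. Cyp20a1 was at 4.88 on wild-type array 4 and 3.73 to 3.89 on the other wild types, a gap of 0.858 of the range. Cyp26a1 was at 2.73 on knockout array 1 and 3.00 to 3.05 on the other knockouts (0.836 of the range). Adam10 was at 7.06 on wild-type array 3 and 7.33 to 7.39 on the other wild types (0.831 of the range). Ahr was at 7.82 on knockout array 4 and 7.49 to 7.52 on the other knockouts (0.921 of the range).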

How the results depend on the processing

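With 1 array left out, 1 to 3 P450 genes rose and 3 to 7 fell, 0 to 5 partner genes passed, and 587 to 1997 of all genes passed (without knockout array 2 and without wild-type array 4), against 3, 4, 3 and 1744 with all arrays. With a filter on dim genes 2 P450 genes fell, of 15 members still tested, and with the skeletal muscle covariate 7 fell. The partner genes that passed were 5 with the filter, with a pseudocount of 16 and with the trended and robust prior, 8 with array weights, and 0 with the muscle covariate and without wild-type arrays 3 and 4. All genes passed numbered 2739 after median centring, 3621 with array weights and 925 without wild-type arrays 3 and 4. Adam10 passed at -0.46 after quantile normalization, -0.49 after cyclic loess, -0.32 with the pseudocount, and -0.36 with the filter, the floor at the 25th percentile and the other prior. The cause of these shifts was not tested. Among the 24 named genes other than Adam10, 422 values kept their side of the threshold, 39 lost it and 6 gained it (Cyp4f39 and Cyp2b19). No called value changed sign, but values near 0 that were not called, such as those of Cyp1a1, did under some settings. Of passed genes 73.2% were higher. Quantile normalization gave 63.0%, cyclic loess 56.9% and median centring 89.6%, the last with a median difference over all genes of 0.10 and over the members of 0.06, against -0.05 without it. With the pseudocount of 16 dimmer genes moved less: Cyp2f2 by -0.92, Cyp2g1 by -0.48, Cyp2j9 by 0.48 and Cyp3a13 by 0.46, and these 4 still passed. No paired analysis was possible because the labels give the arrays no replicate numbers. Dim probe sets limit 43 members.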
